A study of Mus musculus with 8 samples.

Results

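Late-numbered miRNAs are those that miRBase, the miRNA catalogue, named last. Here they were taken as the mouse miRNAs numbered 1900 or above with at least 1 CPM (counts-per-million, over all reads on miRNAs) in at least 1 of 4 C2C12 hairpin libraries. The rule selected 138 of the 1066 rows with such numbers, in a table of 1978 mature miRNAs. The members were thus chosen by their measured levels in these 4 libraries. Another 928 late-numbered rows stayed under 1 CPM in all 4, and 487 of them had 0 reads in every library. Just inside the limit were miR-6896-5p, miR-6418-3p and miR-7073-5p, whose highest levels were 1.06, 1.02 and 1.001 CPM. Just outside it were miR-1930-3p, miR-3076-3p and miR-3103-3p, each at 0.972 CPM.

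The study compared small RNA from 8 libraries of mouse cell lines, with 1 library per condition. C2C12 skeletal myoblasts expressing either shNC, a control hairpin, or shPerk, which targets Perk, were taken at day 0 and after 3 days in differentiation medium. Perk encodes a kinase that senses stress in the endoplasmic reticulum, and ATF4 is a transcription factor whose translation the Perk pathway raises. A second C2C12 pair carried an empty vector or overexpressed ATF4, and another pair was P19 embryonal carcinoma cells with shNC or shPerk. The C2C12 hairpin lines were stable lentiviral lines, so all 4 hairpin libraries, controls included, came from cells that carry an integrated hairpin cassette and express a hairpin RNA. The labels name neither a day nor a state for P19 cells, and no day for the ATF4 pair. Perk itself is not measured in miRNA tables, so its knockdown could not be checked here.

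A canonical miRNA is cut from a long primary transcript by Drosha, exported as a hairpin and cut again by Dicer, which leaves a 5p and a 3p arm. Bases 2 to 8 of the mature strand, the seed, pair with target mRNAs. A mirtron takes another route: a short intron is spliced out, folds into a hairpin and reaches Dicer without Drosha, so that its ends are the splice sites of the host gene. In a tailed mirtron only 1 end of the hairpin lies at a splice site. Other catalogue entries lie inside small structural RNAs, such as the snoRNAs that guide modification of ribosomal RNA, or inside repeats.

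The position of the hairpin, which the rule did not use directly, set part of the late-numbered miRNAs apart. The rule did use the catalogue number, and whether numbers were given independently of position was not tested. RefSeq (build GRCm38.p6) held the mature sequence of 120 of the 138 members and the hairpin of 111. Members whose hairpin ended within 5 bases of the 3′ end of an annotated intron on the same strand numbered 23 of 111 (20.7%). Mature miRNAs were counted, so that miR-1981 and miR-6967 each entered with both arms. Among the earlier-numbered miRNAs at 1 CPM or more, 3 of 366 (0.82%) had such a hairpin. Among the members from miR-6896 to miR-7093 the count was 16 of 17 (94.1%), against 7 of 94 (7.45%) for the members with other numbers. The exception was miR-6914-3p, whose hairpin lies in an exon of a transcript of Ankrd52. Counting introns by their 3′ end was decided after the positions had been seen. Hairpins that filled a whole intron, the position of a classical mirtron, gave 7 of 111 members, both arms of miR-1981 among them. Of the earlier-numbered miRNAs 2 of 366 had that position.

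The mature ends were counted as well. Of 44 members that are 3p arms with a sequence, 11 ended in AG, the last bases of an intron, against 8 of 187 earlier-numbered 3p arms (4.28%). From miR-6896 to miR-7093 the count was 8 of 11 (72.7%), each of them ending in CAG. An AG end need not be an intron end: the hairpins of miR-6914-3p and miR-1966-3p lie in exons. The 5p arms began with GU, the first bases of an intron, in 5 of 38 members (13.2%) and in 5 of 186 earlier-numbered miRNAs (2.69%). Of those 5 members, miR-3074-5p and miR-3084-5p do not lie at an intron start. Those 8 arms are shown first because their last 3 bases repeat, then miR-1982-3p, whose hairpin fills an intron of Oaz1, and 5p arms that begin at an intron start, with the seed in capitals, written 5′ to 3′ as RefSeq gives them.
miR-6899-3p: uUGUCCUUcugugucuucugcag
miR-6911-3p: uCAAUCACacucuguccacag
miR-6914-3p: uCUGUCCAccucuucccag
miR-6944-3p: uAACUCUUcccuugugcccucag
miR-6958-3p: uCAGCUGCcucuugccaucacag
miR-6966-3p: uGCUGUGUgcuuccucugcag
miR-6967-3p: uCAUCUUUaucucuccccag
miR-7093-3p: uUUCCAUCugucauccugcag
miR-1982-3p: uCUCACCCuauguucucccacag
miR-6923-5p: gUGAGGGCaggaggauuggggugu
miR-7091-5p: gUAGGGGUgauagauuccauggc
miR-1981-5p: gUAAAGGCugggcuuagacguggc

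**Figure D1:**
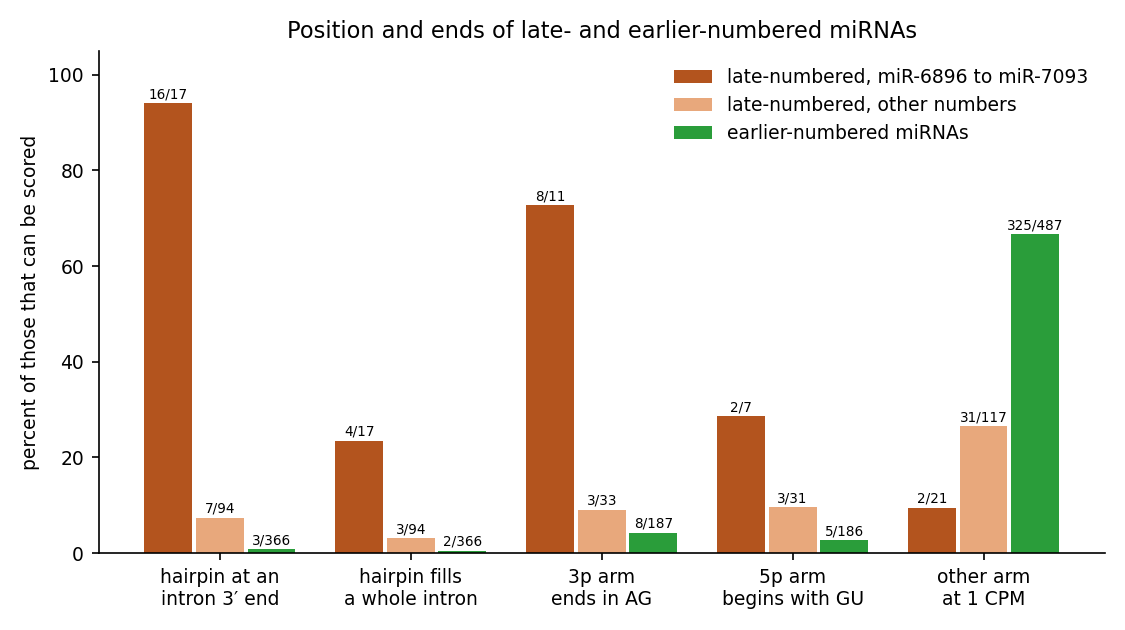
Bars give the percent of late-numbered miRNAs (miR-6896 to miR-7093 and all other members) and of earlier-numbered miRNAs with each feature, with the counts printed above. The members from miR-6896 to miR-7093 reach 94.1% for a hairpin at an intron 3′ end and their 3p arms 72.7% for an AG end.

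The late-numbered miRNAs also differed from the others in base composition and in arms. Their median GC content was 54.4%, against 45.8% for earlier-numbered miRNAs. The C and U content of their 3p arms had a median of 66.7%, against 52.4%. Only 33 of 138 members (23.9%) had their other arm at 1 CPM or more in any hairpin library, while 325 of 487 earlier-numbered miRNAs (66.7%) did. A name without an arm was carried by 44 members (31.9%) and by 25 earlier-numbered miRNAs (5.13%). Other arms were matched by name, so that entries without an arm in the name could not score. The shares were also not matched for level, and the members had a median of 1.97 CPM against 36.9 CPM.

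Seeds were mostly their own: 8 of the 120 members with a sequence shared bases 2 to 8 with an earlier-numbered mature miRNA. The seed AGGGAGG was carried by both miR-1943-5p and miR-6967-5p, and earlier-numbered miR-149-3p has it too. The members miR-3473b and miR-3473e share a seed with each other and an unbroken run of 18 bases, so that reads on one cannot be told from the other by that run alone. These pairs are shown to let the shared letters be seen.
miR-1943-5p: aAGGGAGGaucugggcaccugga
miR-6967-5p: cAGGGAGGgauaaagaccagu
miR-3473b: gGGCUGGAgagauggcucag
miR-3473e: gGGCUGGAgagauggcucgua

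Some members lie inside other RNAs. The mature sequence was found within a small structural RNA of GENCODE vM21 for 9 of 120 members (7.5%) and for 9 of 391 earlier-numbered miRNAs (2.3%). In 7 of the 9 the RNA was a snoRNA or scaRNA. They were both arms of miR-3068, where that annotation carries the name of the miRNA gene itself, and both arms of miR-3084 (Snora19), miR-5121 (Snord33, within Rpl13a), miR-3535 (a snoRNA in Ncl, the gene of nucleolin) and miR-6516-5p (a scaRNA in Snhg20). The others of the 9 were miR-3470b and miR-3473b, in RNAs classed as misc_RNA. A fragment of an RNA that this annotation lacks could not be found in this way. The hairpin of miR-1983 spans the RefSeq tRNA gene n-TItat14 on chromosome 13. None of the 366 earlier-numbered miRNAs with a RefSeq hairpin overlapped a tRNA gene. RefSeq tRNA genes were compared by hairpin position alone, not by mature sequence. The sequence of miR-3470b was found in transcripts of 173 protein-coding genes, that of miR-3473b in 114 and that of miR-3473a in 52. The authors' rule for reads that match several places is not given in the sources used here, so the values of these members are uncertain.
miR-1983: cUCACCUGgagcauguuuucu
miR-3535: uGGAUAUGaugacugauuaccugaga
miR-5121: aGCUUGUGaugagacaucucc
miR-3084-5p: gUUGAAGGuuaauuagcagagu

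The late-numbered miRNAs were scarce. Their mean over the 4 hairpin libraries had a median of 1.97 CPM, against 36.9 CPM for the 487 earlier-numbered miRNAs that passed the same limit. A mean under 10 CPM was found for 122 of the 138 (88.4%), and 4 reached 100 CPM. Together the members summed to 2444 CPM in shNC day 0, 1629 in shPerk day 0, 1286 in shNC day 3 and 1227 in shPerk day 3. The members at 1 CPM or more numbered 123, 103, 93 and 80 in the same order, and 63 reached it in all 4 libraries. Another 25 reached it in exactly 1 library, which was shNC day 0 for 18 of them. Those 25 entered through the library in which they were high.

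Levels were led by a few members. miR-5099, whose sequence was not matched, had 849 CPM in shNC day 0, 529 in shPerk day 0, 392 in shNC day 3 and 570 in shPerk day 3. No comparison of its 4 libraries passed the fold limit. miR-1983, whose hairpin contains a tRNA gene, stood at 365, 147, 149 and 29.3 CPM in the same order. It was highest in the control myoblasts at day 0, and shPerk day 3 lay far under the other libraries.

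**Figure D2:**
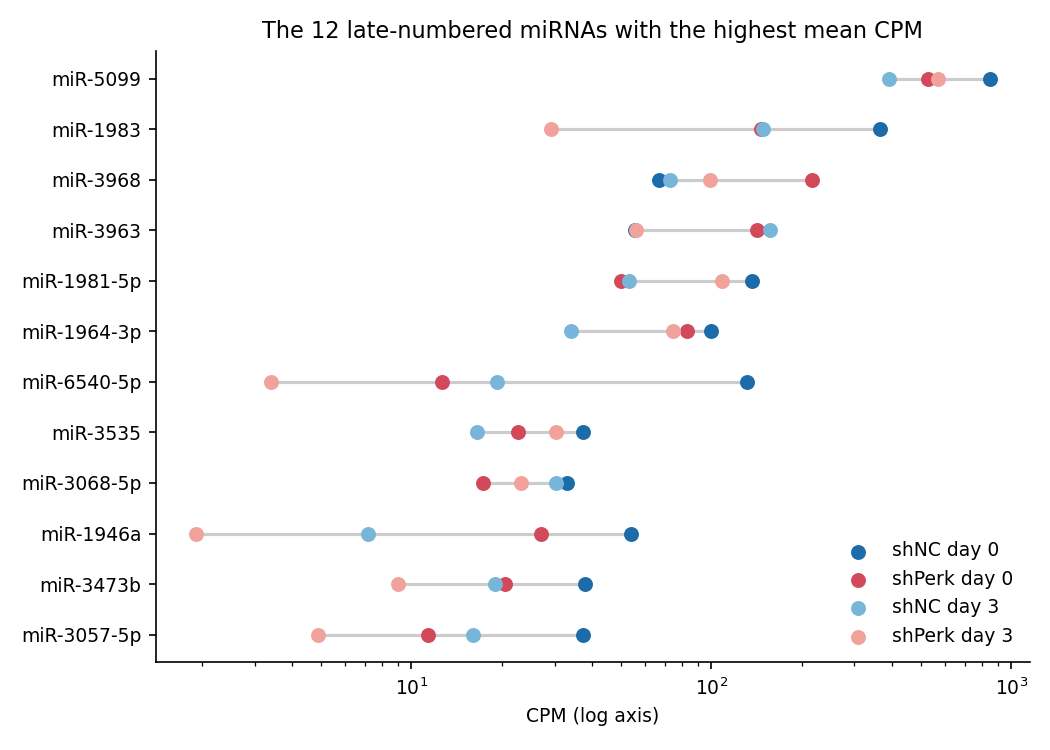
CPM on a log axis for the 12 late-numbered miRNAs with the highest mean, with 1 point per hairpin library. miR-5099 leads in all 4 libraries, between 392 and 849 CPM, and miR-6540-5p and miR-1946a span the widest ranges, with shNC day 0 highest and shPerk day 3 lowest.

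The library shNC day 0 held the highest CPM of 94 of the 138 members (68.1%), against 35.7% of the earlier-numbered miRNAs and 38.4% of those with a mean under 10 CPM. After TMM scaling, which aligns libraries on the bulk of the miRNAs, it was highest for 71 members (51.4%) and for 112 of 487 earlier-numbered miRNAs. shPerk day 3 was the lowest library for 72 members by CPM and for 60 after TMM scaling. These shares describe the libraries on which the members were chosen.

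Depth in the hairpin libraries lay between 8800977 and 11993448 reads, so that 1 CPM is about 10 reads and a count of 0 still allows 0.25 to 0.341 CPM. In the RPM tables (reads-per-million, with values under 1 listed at 0), 96.1% to 98.2% of the values under 10 RPM were whole multiples of 1 step, within rounding. 1 read was thus worth about 0.0945 RPM with vector, 0.0822 with ATF4, 0.126 in P19 shNC and 0.224 in P19 shPerk, the shallowest library. A difference in the hairpin libraries was called when the TMM-scaled log2 fold change passed 1 and an exact binomial test on the reads passed after Benjamini-Hochberg adjustment over all 625 miRNAs tested. In the RPM tables the fold limit alone was used. Such calls compare libraries and not conditions, because replicates are absent. Intervals are 95% Clopper-Pearson intervals and cover counting error only.

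The cell lines carried their known miRNAs, and P19 cells held some muscle miRNAs as well. The muscle miRNAs miR-1a-3p, miR-133a-3p, miR-133b-3p and miR-206-3p were all present in the hairpin libraries, with miR-206-3p between 3650 and 66926 CPM. Among the 8 markers of embryonal cells (such as miR-294-3p and miR-302b-3p) the highest level there was 0.0883 CPM, against 25.35 to 180818 RPM in P19 cells. In P19 shNC and shPerk cells miR-1a-3p had 21.22 and 69.56 RPM, miR-133a-3p 12.12 and 25.58 and miR-133b-3p 1.14 and 1.79. miR-206-3p was not listed in P19 cells. The C2C12 vector library had 6.42 RPM of miR-1a-3p, less than P19 cells, and 2350.57 RPM of miR-206-3p. Of the 4 markers of other cells, miR-124-3p (neurons) had 0 reads in the hairpin libraries, and miR-223-3p (blood cells) at most 0.106 CPM. The liver miRNA miR-122-5p had 10.1 CPM in shNC day 0, 6.82 in shPerk day 0, 4.09 in shNC day 3 and 2.76 in shPerk day 3, the same order as the members' medians of 3.05, 1.93, 1.58 and 1.27 CPM. Its part in the members' levels was not tested. The blood cell miRNA miR-142a-3p went from 2.47 to 225 CPM with shPerk at day 0 and from 5.00 to 70.5 CPM at day 3, in the same libraries as every knockdown result given here for C2C12 cells. Its part in those results was not tested.

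With knockdown of Perk at day 0 in myoblasts, 97 of the 138 members had a log2 fold change below 0, against 308 of all 625 miRNAs. Of the 138 members 9 were called higher (6.52%) and 30 lower (21.7%), where the background over all 625 miRNAs was 16.8% higher and 17.0% lower. The median log2 fold change was -0.53 for the members and 0.00 for all miRNAs tested. Since the members were selected on levels in these same libraries, the counts describe them and no more. Among the 63 members at 1 CPM or more in all 4 libraries, calls were 4 higher and 11 lower (17.5%) and the median was -0.32. That share of lower calls lay near the 17.0% of all miRNAs. Of the 404 earlier-numbered miRNAs at 1 CPM or more in all 4 libraries, 75 were higher and 57 lower (14.1%), with a median of 0.17.

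At day 3 the knockdown gave 13 members called higher and 21 lower, against a background of 18.4% higher and 20% lower. Scaling to the total changed this split to 9 higher and 28 lower. The median of the members was -0.17 and that of all miRNAs -0.10. In the 63 members present in all libraries the median was 0.00, with 5 called higher and 11 lower (17.5%). The 404 earlier-numbered miRNAs present in all libraries had a median of 0.01, with 79 higher and 79 lower (19.6%). Both days share no library, and 5 of the 138 members were called higher and 10 lower at both, beside 63 and 57 of all 625 miRNAs. The libraries of both days came from stable shNC and shPerk lines, so that a trait of a line would recur at both.

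Among the 10 members lower at both days, miR-3099-3p and miR-6540-5p had the largest folds at day 0, and miR-1933-3p, on 1 read, and miR-1930-5p (-2.58) at day 3. miR-6540 lies in an intron of Gap43, a growth-associated protein of neurons (hairpin chr16:42303362-42303469, minus strand). Its 5p arm had 1484 reads in shNC day 0, 111 in shPerk day 0, 232 in shNC day 3 and 32 in shPerk day 3. Both knockdown libraries lay under their controls, by a log2 fold change of -3.18 at day 0 (95% interval -3.47 to -2.90) and -2.24 at day 3 (-2.83 to -1.71).

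The 3p arm of the same hairpin gave 70, 8, 17 and 5 reads in that order, called lower at day 0 (-2.56) and not at day 3 (-1.14). Its sequence is printed with those of the other members named in these comparisons. The 5p arm made up 95.5% of the reads of both arms in shNC day 0 (94.3% to 96.5%) and 86.5% in shPerk day 3 (71.2% to 95.5%), so that 1 arm led throughout.
miR-6540-3p: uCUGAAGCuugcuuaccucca
miR-3099-3p: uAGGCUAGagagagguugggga
miR-3057-5p: aUUGGAGCugagauucugcgggau
miR-1933-3p: cCAGGACCaucagugugacuau
miR-7676-3p: uCCGGUGCucacucugcccaca
miR-2137: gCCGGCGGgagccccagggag
miR-6240: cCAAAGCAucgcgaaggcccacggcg
miR-3963: uGUAUCCCacuucugacac
miR-3968: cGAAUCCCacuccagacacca

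miR-3099-3p, from an intron of the imprinted gene Usp29, had 110, 6, 63 and 9 reads in shNC day 0, shPerk day 0, shNC day 3 and shPerk day 3. The log2 fold change was -3.62 at day 0 (-5.12 to -2.47) and -2.18 at day 3 (-3.39 to -1.18). Both knockdown libraries were low and both controls high. miR-3099-3p passed the limit of 1 CPM through the shNC libraries alone, so that a control had to be high. miR-1983 was lower too, at -1.12 on day 0 and -2.08 on day 3.

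miR-3057-5p lies in an exon of annotated transcripts of Apba3, an adaptor protein gene, and had 422, 100, 193 and 46 reads. It was lower at day 0 (-1.52) and at day 3 (-1.45). Its 3p arm had 39, 14, 22 and 4 reads and was called at day 3 (-1.82) but not at day 0 (-0.92). Both arms lay in the same order of libraries.

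The other members lower at both days included miR-1930-5p (Ube2g2, a ubiquitin-conjugating enzyme) and miR-3061-3p (an exon of Ppp2ca, the catalytic subunit of a protein phosphatase). The rest were miR-3062-5p (Pfas, an enzyme of purine synthesis), miR-3074-5p, miR-6945-3p (Pdlim7, a protein of actin fibres) and miR-1933-3p (an intron of Ugp2, an enzyme of glycogen synthesis). miR-3074-5p lies in an intron of Fancc, of the Fanconi anemia pathway. Another copy lies outside genes, with miRNA genes left out of account. miR-1933-3p had 184, 19, 28 and 1 reads, with a log2 fold change of -2.71 at day 0 (-3.48 to -2.03). The ratio at day 3 rests on 1 read, and its interval ran from -9.55 to -1.60. miR-3062-5p passed the limit of 1 CPM through the shNC libraries alone, so that a control had to be high.

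Members higher with shPerk at both days were miR-7676-3p, miR-7224-3p, miR-12182-3p, miR-5129-3p and miR-7680-3p. All of them but miR-7680-3p lay under 1 CPM in both shNC libraries. Those members passed the limit of 1 CPM through shPerk libraries alone, so that a rise with shPerk was built into their selection. miR-7676-3p had 0 reads in shNC day 0, 18 in shPerk day 0, 0 in shNC day 3 and 28 in shPerk day 3. It was seen in both knockdown libraries and in neither control, at least 8.83-fold higher at day 0 and at least 14.3-fold higher at day 3 with the control set to 3 reads. Its sequence matches exons of Csf2rb and Csf2rb2, receptor chains for growth factors of blood cells (hairpins chr15:78348599-78348660, plus strand, and chr15:78284788-78284849, minus strand). It was listed in neither RPM table.

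miR-7224-3p had 9, 31, 6 and 25 reads. Its log2 fold change came to 2.32 at day 0 (1.24 to 3.60) and to 2.64 at day 3 (1.35 to 4.25). The remaining ones were smaller in count: miR-5129-3p, from Zeb2, had 10, 17, 6 and 14 reads and miR-7680-3p 22, 34, 19 and 27. For miR-12182-3p the counts were 3, 9, 1 and 13 reads. All 5 members were higher in each knockdown library than in its control. With scaling to the total, miR-7680-3p came to 0.99 at day 0 and 0.85 at day 3 and was not called, and miR-5129-3p (1.12) and miR-12182-3p (1.90) lost their day 0 call, as they did with upper-quartile factors (1.17 and 1.95) and without a filter on low counts.

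Opposite calls on the 2 days were found for miR-1981-5p and miR-3963. miR-1981 fills a whole intron of Marc2, a mitochondrial reductase gene (chr1:184822407-184822488, minus strand). Its 5p arm had 1542 reads in shNC day 0, 440 in shPerk day 0, 638 in shNC day 3 and 1023 in shPerk day 3. The knockdown lay lower at day 0 (-1.25, -1.41 to -1.10) and higher at day 3 (1.29, 1.15 to 1.44). The 3p arm, with 77, 42, 85 and 49 reads, passed no limit in either comparison. The 5p share of both arms was 88.2% in shNC day 3 (85.7% to 90.5%) and 95.4% in shPerk day 3 (94.0% to 96.6%).

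miR-3963 moved the other way, with 55.7, 142, 157 and 56.1 CPM in the same order. It was higher with shPerk at day 0 (1.54) and lower at day 3 (-1.22). miR-3968 had 67.1, 217, 72.5 and 98.9 CPM, called higher at day 0 (1.89) and not at day 3 (0.71). In both, shPerk exceeded shNC at day 0.

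Calls on 1 day only were more common. miR-1964-3p, from an intron of the zinc finger gene Zfp84, had 1125, 732, 407 and 700 reads in the usual order and was higher with shPerk at day 3 (1.39) but not at day 0 (-0.06). miR-6539 had 241, 216, 131 and 23 reads, lower at day 3 (-1.89) and not called at day 0 (0.40). For miR-6539 the interval at day 0 ran from 0.13 to 0.67, so that shPerk lay slightly above its control there. miR-7689-3p had 286, 47, 76 and 35 reads, lower at day 0 (-2.05) and at -0.50 on day 3. miR-5615-5p had 36, 6, 20 and 24 reads (-2.01 and 0.87), and miR-3079-5p 47, 5, 11 and 5 (-2.65 and -0.52). These members were low in shPerk day 0 against its control. miR-3079-5p passed the limit of 1 CPM through shNC day 0 alone, so that this library had to be high. Higher at day 0 were miR-6238, with 6, 25, 13 and 13 reads (2.59), and miR-5100, with 15, 36, 20 and 22 reads (1.81). At day 3 miR-3474, with 12, 5, 8 and 29 reads, was higher (2.45). Whether the change differs between the days was not tested for any of them.

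**Figure D3:**
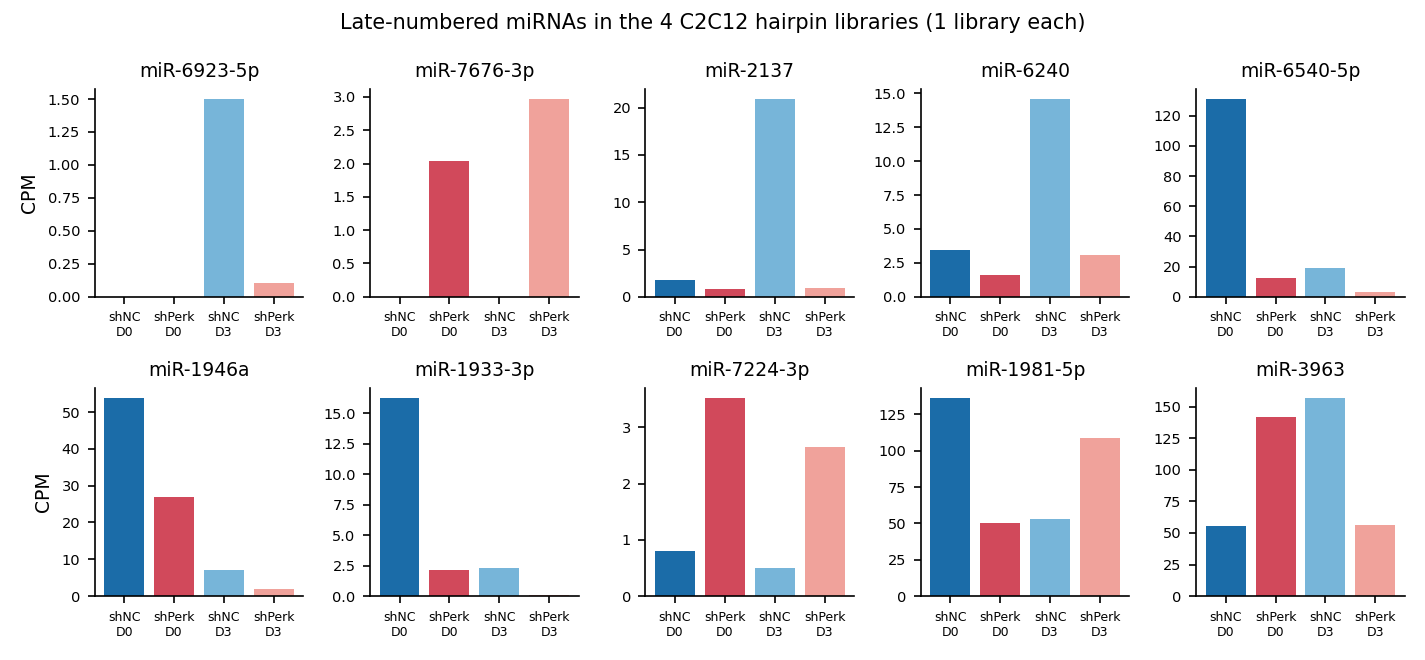
CPM of 10 late-numbered miRNAs in the 4 hairpin libraries, each panel with its own axis from 0 and 1 library per bar. miR-7676-3p appears in the shPerk libraries, miR-6923-5p and miR-2137 peak in shNC day 3, and miR-6540-5p, miR-1946a and miR-1933-3p are highest in shNC day 0.

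Differentiation of control cells went with lower levels of many members. Of the 138, 7 were called higher at day 3 and 33 lower, where the background was 14.2% higher and 10.6% lower over all miRNAs. Their median log2 fold change was -0.62, against 0.05 for all miRNAs tested. The 63 members present in all libraries had a median of -0.60, with 3 called higher and 14 lower (22.2%). The 404 earlier-numbered miRNAs present in all libraries had a median of 0.23, with 69 higher and 20 lower (4.95%). Scaling to the total gave 5 higher and 57 lower of the 138. In shPerk cells 8 were called higher and 22 lower, against a background of 15.2% higher and 11.5% lower, with a median of -0.39 against 0.01. The split in shPerk cells was 5 and 47 with scaling to the total and 15 and 14 with upper-quartile factors. Whether the change differs between shNC and shPerk cells was not tested.

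The 31 members from miR-1929 to miR-1983 held 11 of the 33 decreases in shNC cells. In that group 11 of 31 members were called lower and 1 higher in shNC cells (all miRNAs 10.6% and 14.2%). In shPerk cells 11 were lower and 1 higher (11.5% and 15.2%). Mature miRNAs were counted, so that miR-1933 entered with both arms. Of those called lower, miR-1933-5p and miR-1938 passed the limit of 1 CPM through shNC day 0 alone. miR-1950 passed it through shPerk day 0 alone and miR-1946b through day 0 libraries alone. For these a high day 0 library was built into the selection. miR-1946a had 609 reads in shNC day 0, 238 in shPerk day 0, 86 in shNC day 3 and 18 in shPerk day 3. Both day 3 libraries were under both day 0 libraries, by -2.55 in shNC cells (-2.89 to -2.22) and -3.39 in shPerk cells (-4.17 to -2.70). The related miR-1946b had 37, 18, 4 and 4 reads and was lower as well (-2.90 and -1.81). The second call was lost with upper-quartile factors (-1.61).

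In shNC cells 12 of the 15 hairpins with both arms among the members had both below 0, 1 had both above and 2 were split. Of all 138 members 106 lay below 0 in this comparison, so that such pairs say little about a link between arms. Arms were split in 4 of 15 hairpins with shPerk at day 3, 2 with shPerk at day 0, 4 with differentiation of shPerk cells and 2 with ATF4. In P19 cells 5 of 7 were split. miR-3109 lies in an intron of Anxa2, a membrane-binding protein. Its 5p arm had 37, 26, 6 and 6 reads in shNC day 0, shPerk day 0, shNC day 3 and shPerk day 3. That arm was called lower at day 3 in shNC (-2.33) and shPerk cells (-1.77). Its 3p arm, with 43, 55, 21 and 30 reads, was not (-0.76 and -0.54).

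A few members rose with differentiation. miR-2137 had 20 reads in shNC day 0, 7 in shPerk day 0, 251 in shNC day 3 and 9 in shPerk day 3, so that 1 library stood above the other 3. Its hairpin lies in an intron of Zfp185, an actin-associated LIM protein (chrX:72992079-72992144, plus strand). The log2 fold change was 3.92 in shNC cells (3.27 to 4.66), and in shPerk cells it was 0.68 (-0.90 to 2.35). miR-6240, which shares its seed with earlier-numbered miR-330-3p, had 39, 14, 175 and 29 reads and rose in both (2.44 and 1.37). In shPerk cells it came to 0.95 with scaling to the total and was not called. miR-1968-5p had 21, 15, 40 and 17 reads, higher in shNC cells (1.20), though 0.84 with scaling to the total.

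miR-6923-5p lies at the start of an intron of Myh3, the embryonic myosin heavy chain of developing muscle, and its hairpin fills that intron (chr11:67099804-67099875, plus strand). It is named here for its position and was chosen after its values were seen. There were 0 reads in shNC day 0, 0 in shPerk day 0, 18 in shNC day 3 and 1 in shPerk day 3. It passed the limit of 1 CPM through shNC day 3 alone, at 1.501 CPM, so that this library had to be high. The control cells were at least 7.26-fold higher at day 3 than at day 0, with day 0 set to 3 reads. The knockdown at day 3 had 1 read against 18, with a log2 interval of -8.94 to -0.89. Muscle miR-206-3p stood at 66926 CPM in shNC day 3 and 20796 in shPerk day 3.

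The 23 members at intron 3′ ends, miR-6923-5p included, were mostly not called. With differentiation of shNC cells 1 was called higher, miR-6923-5p itself, and 4 lower, beside 14.2% and 10.6% of all miRNAs, and the median was -0.31. With shPerk at day 0, 1 was higher and 5 lower (all miRNAs 16.8% and 17.0%) with a median of -0.91, against 0.00 for all. With shPerk at day 3, 3 were higher and 3 lower, miR-6923-5p among the latter (all miRNAs 18.4% and 20%), with a median of -0.06. Among the 23, miR-3097-5p, miR-6896-5p, miR-7073-5p and miR-6923-5p passed the limit of 1 CPM through an shNC library alone, so that a control had to be high. miR-5129-3p passed it through shPerk libraries alone. The knockdown medians thus rest in part on members whose direction the rule favoured, and no median was taken without them. miR-6960-5p, from Troap, a protein of dividing cells, had 35, 12, 29 and 2 reads, and the day 3 comparison gave -3.18 on 2 reads (-6.36 to -1.26). miR-6944-3p, which fills an intron of Dbn1, the gene of the actin-binding protein drebrin, had 131, 42, 88 and 56 reads and was called lower with shPerk at day 0 (-1.08). The latter was chosen after its values were seen.

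The 7 members inside snoRNAs or scaRNAs hold both arms of miR-3068 and of miR-3084, so that they are not 7 separate hairpins. The snoRNA record of miR-3068 carries the name of the miRNA gene itself. With shPerk at day 0, 0 of the 7 were called higher and 1 lower (all miRNAs 16.8% and 17.0%). All 7 lay below 0, from -2.16 to -0.03 with a median of -0.54. At day 3, 1 was called in each direction (18.4% and 20%) and the median was 0.03. With differentiation 1 was higher and 0 lower in shNC cells (14.2% and 10.6%), and 2 were higher and 0 lower in shPerk cells (15.2% and 11.5%), with medians of 0.10 and 0.85. miR-3535 had 423, 199, 199 and 286 reads and was called higher at day 3 (1.14, 0.87 to 1.40), though not with scaling to the total (0.87). miR-6516-5p had 24, 8, 40 and 23 reads, called higher with differentiation in shNC (1.01) and shPerk cells (1.84). The shNC call was lost with scaling to the total (0.65), upper-quartile factors (0.99) and a prior count of 2 (0.95). In miR-3068 the arms parted: the 5p arm had 374, 153, 364 and 219 reads, the 3p arm 201, 94, 240 and 59. The 5p share was 60.3% in shNC day 3 (56.2% to 64.2%) and 78.8% in shPerk day 3 (73.5% to 83.4%).

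**Figure D4:**
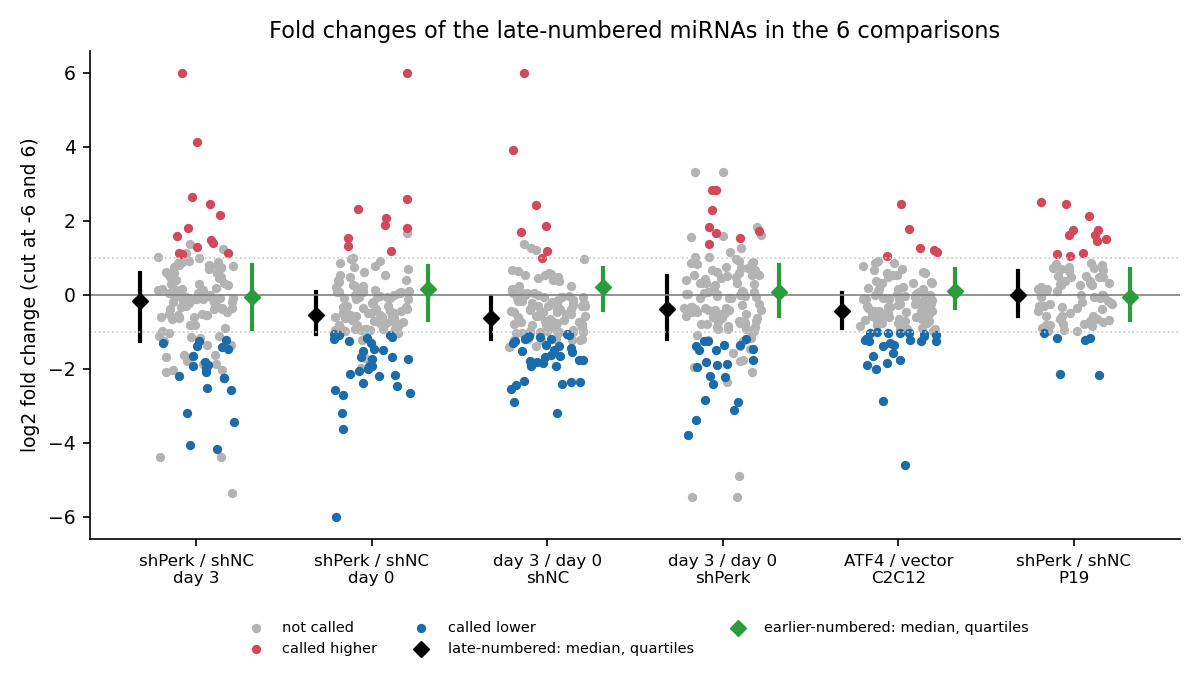
Log2 fold changes of the late-numbered miRNAs in 6 comparisons, 1 point per miRNA, with the median and quartiles of the late-numbered (black) and earlier-numbered (green) miRNAs beside them. Values past 6 are drawn at the edge; the black medians run from -0.62 to -0.01, and in the ATF4 pair the black median is -0.44.

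Overexpression of ATF4 was not used to choose the members, and 120 of the 138 were listed in that table. Of these, 6 were called higher and 25 lower, where the background over 605 miRNAs was 14.5% higher and 8.93% lower. The median log2 fold change was -0.44 for the members and 0.00 for all miRNAs. With upper-quartile factors 2 were called higher and 46 lower. Of the members from miR-1929 to miR-1983, 30 were listed, with 0 called higher and 13 lower. The liver marker miR-122-5p went from 79.67 to 26.14 RPM in the same pair, and its part was not tested. In the listed members at 1 CPM or more in all hairpin libraries, 3 of 62 were higher and 9 lower (14.5%). Of the 398 listed earlier-numbered miRNAs at that level, 77 were higher and 18 lower (4.52%).

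miR-6540-5p had the largest fold of the listed members with ATF4, from 152.63 RPM to 6.08, a log2 fold change of -4.59. Its 3p arm went from 7.56 RPM to a listed 0. miR-1946a went from 159.15 to 44.88 RPM (-1.76), miR-1933-3p from 16.63 to 4.44 (-1.84) and miR-3473e from 48.39 to 15.7 (-1.56). All of these lay lower with ATF4. miR-3081-3p, from an intron of Boc, a cell surface protein of muscle differentiation, went up from 9.83 to 19.48 RPM (1.05), a call lost with scaling to the total (0.99) and with upper-quartile factors (0.67). miR-7224-3p went from 1.70 to 5.59 RPM (1.78). Both arms of miR-1941 were lower, from 10.49 to 2.71 RPM for the 5p arm (-1.89) and from 13.61 to 5.59 for the 3p arm (-1.22).

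miR-5099 stood at 1263.84 and 1241.99 RPM, a difference of 0.04 on the log2 scale. miR-1983 had 839.6 and 673.14 RPM (-0.26). Both thus stayed within the fold limit, unlike the abundant miR-1946a, miR-6540-5p and miR-3473b, which were called lower. Of the 36 members at a mean of 10 RPM or more, 1 was called higher (2.78%) and 7 lower (19.4%). Of the 319 earlier-numbered miRNAs at that level, 14.7% were called higher and 4.7% lower.

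In P19 cells 81 members were listed, and 57 were not. Of the 81, 12 were called higher with shPerk and 6 lower, against a background of 17.7% higher and 17.7% lower over 696 miRNAs. The members' median was -0.01, against -0.04 for all. With scaling to the total the split was 7 higher and 25 lower, and with upper-quartile factors 9 and 10. Scaling to the total moved the median of all miRNAs to -0.65 in this pair. The neuronal marker miR-124-3p went from 197.82 to 29.61 RPM and miR-122-5p from 4.67 to 10.55, and their part was not tested.

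The 3 largest rises in P19 cells were in miR-3535, miR-3473e and miR-3473b. miR-3535, within a snoRNA, went from 131.76 RPM in shNC to 491.6 in shPerk (2.50). miR-3473b, whose sequence recurs in many genes, went from 161.7 to 463.55 RPM (2.12) and miR-3473e from 112.3 to 402.97 (2.45). The last pair shares 18 bases, so its members are not separate observations. miR-5121 went from 13.01 to 23.33 RPM (1.45) and miR-7689-3p from 8.21 to 15.26 (1.499), and with scaling to the total these came to 0.84 and 0.89. Against them, miR-3057-5p fell from 27.54 to 8.08 RPM (-1.16) miR-7224-3p from 12.25 to 1.79 (-2.17) and miR-6539 from 68.59 to 22.21 (-1.02). The last came to -0.98 with median-of-ratios factors and was not called.

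miR-5099 was the highest member in P19 cells too, at 4342.69 and 3538.34 RPM. miR-3968 and miR-3963 had 253.79 and 266.55 RPM in P19 shNC cells. No test compares the cell lines, since their tables were normalized separately. miR-3099-3p, low in both C2C12 knockdown libraries, had 21.48 and 20.19 RPM in P19 cells (0.52).

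**Figure D5:**
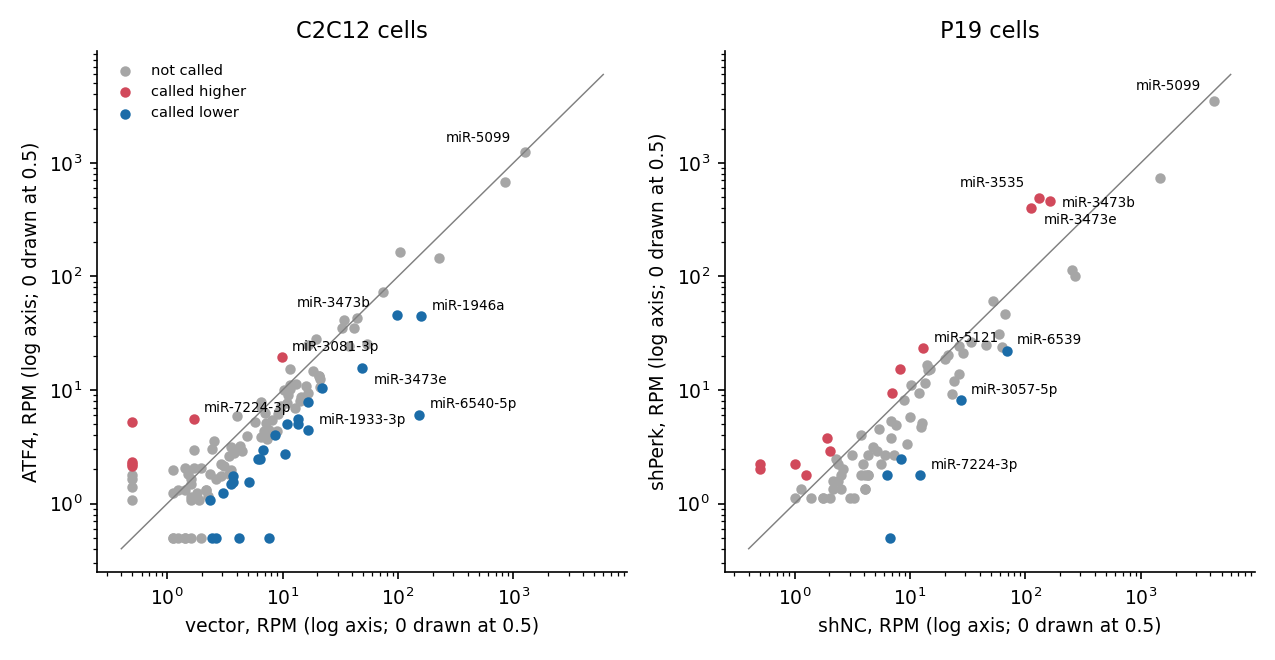
RPM of the late-numbered miRNAs with and without ATF4 and in shNC and shPerk P19 cells, on log axes with the line of equality and values listed at 0 drawn at 0.5. With ATF4 25 points lie past the fold limit on the lower side, and in P19 cells miR-3535, miR-3473b and miR-3473e stand above the line near 403 to 492 RPM.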

How the data were processed

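Small RNA of 8 libraries, 1 per condition, was sequenced by the authors after linker ligation, reverse transcription, PCR and gel selection, and reads were annotated with bowtie (version and miRNA release not given in the sources used here). The build is mm10 (GRCm38), per the labels. The authors deposited raw counts per mature miRNA for the C2C12 hairpin libraries. For the ATF4 and P19 pairs the authors deposited RPM values, with values under 1 listed at 0. The deposited fold changes, p-values and q-values hold the authors' own comparisons and were not used.

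TMM factors came from edgeR 4.0.16 in R 4.3.3 over all 4 hairpin libraries, and log2 fold changes used a prior count of 0.125. The 625 miRNAs that reached 1 CPM in any hairpin library were tested with a two-sided exact binomial test (scipy 1.17.1), adjusted by Benjamini-Hochberg, and called past a log2 fold of 1 at an adjusted p of 0.05. Comparing 1 library with another leaves edgeR's quasi-likelihood test no residual degrees of freedom. An additive model of hairpin and day over the 4 libraries was not run, and conditions carry no p-value. RPM values were scaled by TMM, zeros were set to 1 RPM, and the fold limit alone was used. Against 0 reads a bound with 3 reads in place of 0 is given, and against 1 to 3 reads a ratio with its interval. The scripts were tested on simulated data, where changes in miRNAs with few reads were often missed. Sequences and hairpin positions are from RefSeq, introns and transcripts from GENCODE vM21.

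The members and lists were chosen with earlier results of these data known. Named were the 12 highest members, up to 5 called members per direction and comparison with at least 20 reads or 10 RPM in the higher library, those called alike on both days, their other arms, and those nearest the limit.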

Additional observations from a re-analysis of the deposited data

Results flagged for a closer look

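These patterns come from members called in opposite directions under the same contrast in 2 settings, and the difference itself was not tested, since each setting has 1 library per condition. miR-1981-5p was lower with shPerk at day 0 (-1.25) and higher at day 3 (1.29), a gap of 2.54 on the log2 scale. For miR-3963 the order was reversed, 1.54 at day 0 and -1.22 at day 3, a gap of -2.76. miR-7224-3p was higher with shPerk in C2C12 cells at day 0 (2.32) and day 3 (2.64) and lower in P19 cells (-2.17), gaps of -4.49 and -4.81. miR-7689-3p was lower in C2C12 cells at day 0 (-2.05) and higher in P19 cells (1.499), a gap of 3.54. miR-2137 was lower in C2C12 cells at day 3 (-4.17) and higher in P19 cells (1.62, from 1.89 to 3.81 RPM), a gap of 5.79. miR-6240 was lower at day 3 (-1.98) and higher in P19 cells (1.04), a gap of 3.02. Its P19 call was lost with scaling to the total (0.44) and with upper-quartile factors (0.90), and that of miR-7689-3p with scaling to the total (0.89). The P19 values come from a table with another unit and normalization, and the P19 calls rest on the fold limit alone.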

How the results depend on the processing

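The number of members called and their median log2 fold change were recomputed under every alternative, and 78 of 96 such values kept within the limits set for them. Scaling to the total moved the median to -0.43 for shPerk at day 3, -0.73 at day 0, -0.98 for differentiation of shNC cells, -0.81 for that of shPerk cells and -0.61 in P19 cells. It moved the median of all miRNAs by a similar amount, to -0.36, -0.19, -0.30, -0.41 and -0.65. The members called then numbered 62 for shNC differentiation, 52 for shPerk differentiation and 32 in P19 cells. Upper-quartile factors gave 48 calls and a median of -0.82 in the ATF4 pair, where all miRNAs had -0.38. An edgeR exact test with an assumed coefficient of variation of 0.4 between replicates left 2 calls at day 3 and 4 at day 0 for shPerk, and 1 and 0 for differentiation of shNC and shPerk cells. The fold limit alone called 59 for shPerk at day 3 and 55 for shPerk differentiation. A mean of at least 5 RPM left 13 calls in the ATF4 pair and 10 in P19 cells, where fewer members were tested (57 and 41). Of the values for named members, pooled over all settings, 916 kept their side of the limit, 111 lost it and 0 changed sign. With the assumed variation alone, only 7 kept it and 81 lost it, so that most named calls in the hairpin libraries did not hold there. No members had identical counts. Collapsing identical rows left 607 of 625 miRNAs and 7 in place of 8 members higher with shPerk differentiation. No paired analysis was possible because each group holds 1 library and groups share fewer than 2 replicate numbers. With 1 library per group, none can be left out.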
